A study of Mus musculus with 5 samples.

Results

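The genes described here are 10 cytoskeleton genes by which the neuronal or progenitor state of a cell is commonly read, *Tubb3*, *Map2*, *Mapt*, *Dcx*, *Stmn2*, *Nefl*, *Nefm*, *Nefh*, *Nes* and *Vim*, taken by name from the 55487 genes of the counts table. They were read in all 5 libraries of HT22 cells, an immortalized line derived from the mouse hippocampus that the sample labels call hippocampal neuronal. HT22 cells were transfected with 10 nM siRNA in INTERFERin reagent and collected 48 h later. The NC group had 2 libraries from cells given a negative control siRNA, although the treatment label of these samples reads untreated. The KD group had 1 library from GAS5 siRNA210 and 2 libraries from GAS5 siRNA596, both against the long non-coding RNA GAS5. All groups are of a single cell line, and nothing in the labels says that libraries of a group came from separate cultures, so the *P*-values measure the spread between these libraries, which may be technical.

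Neurons build axons and dendrites on microtubules and neurofilaments. Tubb3 is the beta-tubulin isotype associated with neurons, Map2 and tau (the product of *Mapt*) bind microtubules in dendrites and axons, doublecortin (*Dcx*) marks migrating immature neurons, and Stmn2 destabilizes microtubules in growing axons. Nefl, Nefm and Nefh are the light, medium and heavy neurofilament subunits. Nestin (*Nes*) and vimentin (*Vim*) are the intermediate filament proteins of neural progenitors, and vimentin is also abundant in fibroblasts and many cultured lines.

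The 5 libraries held 30660265 to 36492134 counts each. Gas5, the target of the siRNAs, had 90.3 and 76.0 CPM (read counts relative to the library total, scaled between libraries by edgeR's TMM method) in the NC libraries, 59.6 in the siRNA210 library and 65.8 in siRNA596 replicate 1. In the library labelled siRNA596 replicate 2 it had 179 CPM, which goes against that label. That library also stood apart across the transcriptome, as described beside the values it touches. Comparisons are therefore given first for 4 libraries without it (2 KD, 2 NC) and then for all 5.

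HT22 cells expressed the progenitor filament genes far above the neuronal ones. Levels between genes are given as TPM, counts per kilobase of annotated exon scaled to the same total in every library. *Vim* had 2202 ± 152 TPM (SD, n = 4 libraries) and *Nes* 274 ± 12.4. Of the 26826 genes with a level above 0, *Vim* ranked 36 and *Nes* 542. *Tubb3* followed with 44.7 ± 10.2 TPM, *Map2* with 16.5 ± 2.23 and *Mapt* with 1.25 ± 0.254. *Nefh* was near the limit of detection with 0.0936 ± 0.0297 TPM. *Dcx*, *Stmn2*, *Nefl* and *Nefm* had 0 counts in every library.

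**Figure D1:**
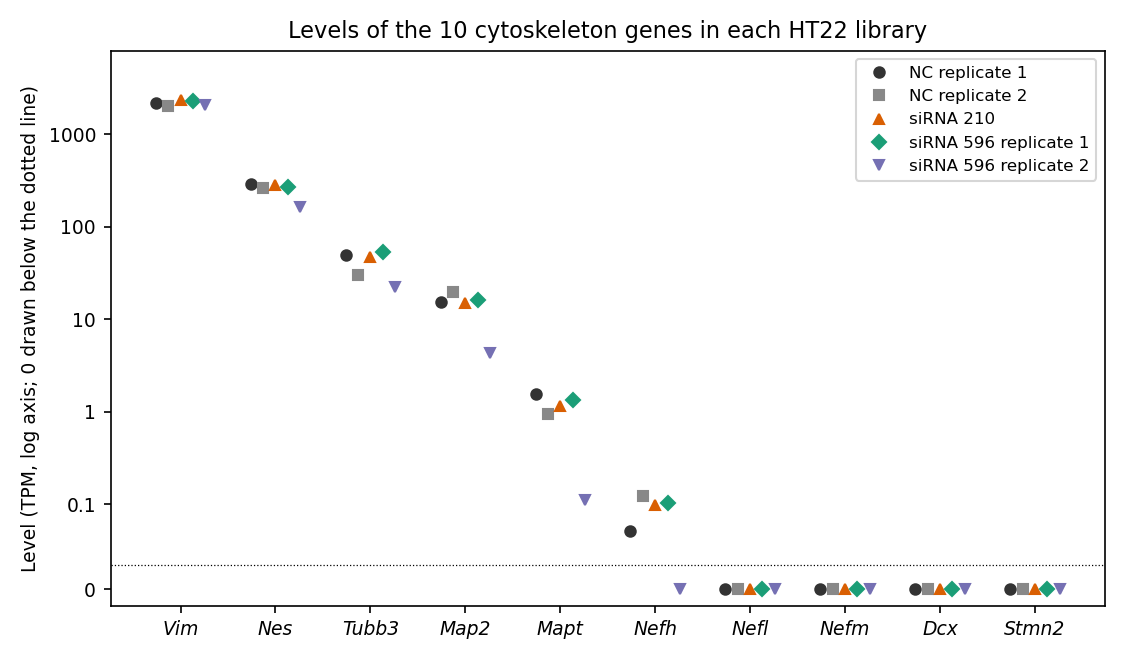
Level of each of the 10 genes (TPM, log axis) in each of the 5 libraries, with 1 point per library and values of 0 drawn below the dotted line. *Vim* and *Nes* lie above 100 TPM in every library, *Tubb3* and *Map2* between 4.27 and 52.9 TPM, and *Dcx*, *Stmn2*, *Nefl* and *Nefm* at 0.

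*Vim* (ENSMUSG00000026728, GRCm38 chr2:13573927-13582826, plus strand) had 2178 TPM in NC replicate 1, 2004 in NC replicate 2, 2364 with siRNA210, 2263 in siRNA596 replicate 1 and 2048 in the library labelled siRNA596 replicate 2. *Nes* (ENSMUSG00000004891, chr3:87971078-87980451, plus strand) had 288, 260, 280, 269 and 164 TPM in the same order of libraries. The 2 progenitor genes were thus steady over 4 libraries, with the lowest *Nes* value in the library labelled siRNA596 replicate 2 in TPM and in NC replicate 2 in CPM. *Vim* was 8.03 times *Nes* on the ratio of mean TPM, and 7.57 to 8.43 times within single libraries of the 4. Per kilobase of longest coding transcript, in place of all annotated exons, it was 16.6 times *Nes*.

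*Tubb3* (ENSMUSG00000062380, chr8:123411424-123422015, plus strand) had 49.0 TPM in NC replicate 1, 29.8 in NC replicate 2, 47.2 with siRNA210, 52.9 in siRNA596 replicate 1 and 22.4 in the library labelled siRNA596 replicate 2. NC replicate 2 was the low library of the 4. *Map2* (ENSMUSG00000015222, chr1:66175273-66442583, plus strand) had 15.2, 19.7, 14.8, 16.3 and 4.27 TPM in that order. Here NC replicate 2 was the high one of the 4. *Mapt* (ENSMUSG00000018411, chr11:104231390-104332090, plus strand) had 1.55, 0.955, 1.14, 1.34 and 0.112 TPM, from 113, 74, 87, 99 and 10 counts. The level of tau mRNA thus rests on far fewer counts than that of *Map2*, which had 2427 to 3336 counts in the 4 libraries and 833 in the library labelled siRNA596 replicate 2. For *Tubb3*, *Map2* and *Mapt* the library labelled siRNA596 replicate 2 was the lowest in TPM, though in CPM *Tubb3* was lower in NC replicate 2.

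In the order *Vim*, *Nes*, *Tubb3*, *Map2*, *Mapt*, *Nefh*, neighbours did not overlap over the 4 libraries. With all 5, *Mapt* and *Nefh* overlapped. *Nes* was 6.13 times *Tubb3* on the ratio of means, *Tubb3* 2.71 times *Map2* and *Map2* 13.2 times *Mapt*. Per longest coding transcript these ratios were 6.42, 1.03 and 24.3, so their size depended on the length used, and for *Tubb3* and *Map2* the order did too. *Map2* has 16449 bases of annotated exon but a longest coding transcript of 6258 bases, against 1868 bases for *Tubb3* by either measure. Per kilobase of longest coding transcript *Tubb3* ran from 21.1 to 37.4 TPM over the 4 libraries and *Map2* from 27.5 to 36.7, so that these neighbours were not separated.

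The neurofilament genes, *Dcx* and *Stmn2* were at or near 0. *Nefh* (ENSMUSG00000020396, chr11:4938754-4948064, minus strand) had 2 counts in NC replicate 1, 5 in NC replicate 2, 4 with siRNA210, 4 in siRNA596 replicate 1 and 0 in the library labelled siRNA596 replicate 2. No library of the 5 exceeded 5 counts of this heavy neurofilament subunit. *Nefl* (ENSMUSG00000022055, chr14:68083863-68089095, plus strand) and *Nefm* (ENSMUSG00000022054, chr14:68082590-68124846, minus strand) lie on opposite strands and share 1108 exonic bases in the annotation, 32.8% of *Nefl* and 19.2% of *Nefm*. The strand setting of the counting is not given in the sources used here. A count of 0 allows up to 3 counts, which is 0.0749 to 0.0914 TPM for *Nefl* and 0.0438 to 0.0535 TPM for *Nefm* over the libraries. For *Dcx* (ENSMUSG00000031285, chrX:143855842-143933311, minus strand) that limit was 0.02 to 0.0244 TPM, and for *Stmn2* (ENSMUSG00000027500, chr3:8509360-8561606, plus strand) 0.0452 to 0.0552 TPM. These limits cover counting error only. The lowest *Vim* level was at least 21912-fold higher than the limit of *Nefl* and at least 81989-fold higher than that of *Dcx*, with limits taken per library. A low level in bulk RNA cannot tell few cells with the transcript from little RNA in each cell.

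Promoter sequences from RefSeq (GRCm38.p6) were at hand for 5 of the 10 genes, *Tubb3*, *Map2*, *Dcx*, *Nes* and *Vim*, as the 250 bases before each start. They are given because they set an undetected neuronal gene beside detected ones. CG dinucleotides numbered 34 in the *Map2* window, 21 in *Tubb3*, 15 in *Nes*, 8 in *Vim* and 3 in *Dcx*, against a median of 6 over 32851 windows of all genes. Thus 96.5% of windows held fewer than *Map2* and 29.0% fewer than *Dcx*. The bases of the windows of *Nes* (chr3:87970843-87971077, plus strand), *Map2* (chr1:66175079-66175272, plus strand) and *Dcx* (chrX:143933312-143933469, minus strand) that lie before the first annotated base of each gene read as follows, 5′ to 3′, with motif matches on either strand in capitals.
Nes: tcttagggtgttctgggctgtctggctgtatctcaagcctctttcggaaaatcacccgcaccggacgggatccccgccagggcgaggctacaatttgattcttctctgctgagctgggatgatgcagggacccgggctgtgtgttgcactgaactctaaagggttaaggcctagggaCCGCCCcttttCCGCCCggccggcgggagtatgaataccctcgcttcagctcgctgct
Map2: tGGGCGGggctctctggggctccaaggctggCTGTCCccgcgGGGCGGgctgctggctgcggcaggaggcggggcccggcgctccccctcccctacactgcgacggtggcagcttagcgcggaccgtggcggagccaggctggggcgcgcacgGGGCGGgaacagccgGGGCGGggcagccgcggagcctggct
Dcx: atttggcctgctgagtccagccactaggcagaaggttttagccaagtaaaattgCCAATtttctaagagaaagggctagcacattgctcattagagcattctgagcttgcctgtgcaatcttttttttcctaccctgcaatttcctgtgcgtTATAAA

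The motifs searched on both strands were the GC box GGGCGG, found in 32.7% of all windows, the CCAAT box CCAAT in 33.8%, the TATA box TATAAA in 12.4%, and the left and right half-sites of the RE1 element, CAGCACC in 5.73% and GGACAG in 18.7%. RE1 is the element bound by REST, a repressor of neuronal genes. No matches of different motifs shared a base in these windows. The *Nes* window held 2 GC boxes, and the *Map2* window held GC boxes and a right RE1 half-site. The *Dcx* window held a CCAAT box and a TATA box, the latter 98 bases before the start and 193 bases before a second RefSeq start. The full *Vim* window held a TATA box 32 bases before the start and 2 CCAAT boxes, and the *Tubb3* window held GC boxes, a CCAAT box and a left RE1 half-site. By the gene annotation the whole *Vim* window lies inside the gene. So do the CCAAT box, the half-site and the GC box nearest the start in the *Tubb3* window. Such matches are a description of the letters in these windows and not of bound factors.

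Set against their own families, *Tubb3*, *Map2*, *Mapt* and *Nefh* each made up a small share of the mRNA. *Tubb3* was 1.16% of the summed TPM of 8 beta-tubulin genes (0.771% to 1.36% over the 4 libraries), whereas *Tubb5*, a widely expressed isotype, was 63.0% and *Tubb4b* 17.8%. *Vim* was 87.8% (87.3% to 88.3%) and *Nes* 10.5% to 11.5% of the summed TPM of 15 cytoplasmic intermediate filament genes. Per longest coding transcript *Vim* was 93.6% and *Nes* 5.66%. *Nefh* was 0.00377% of that sum. Among 17 genes of microtubule-associated proteins *Map2* was 1.88% and *Mapt* 0.143%, below *Map7d1* at 30.9%, the end-binding protein gene *Mapre1* at 14.1% and the broadly expressed *Map4* at 12.5%. Per longest coding transcript *Map2* was 3.21%, *Mapt* 0.133%, *Map7d1* 21.9%, *Mapre1* 9.72% and *Map4* 20.2%. Other members of this family known from neurons had larger shares than *Map2*, among them *Map1a* at 6.63%, *Mapre3* at 6.02%, *Map1b* at 5.87%, *Dclk1* at 5.66% and *Map6* at 4.32% of the sum per annotated exon (named after their values were seen). *Stmn1*, the stathmin of proliferating cells, was 97.8% of the summed TPM of the 4 stathmin genes, of which *Stmn2* gave 0. In the library labelled siRNA596 replicate 2 the shares were 0.563% for *Tubb3*, 92.0% for *Vim* and 7.36% for *Nes*.

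**Figure D2:**
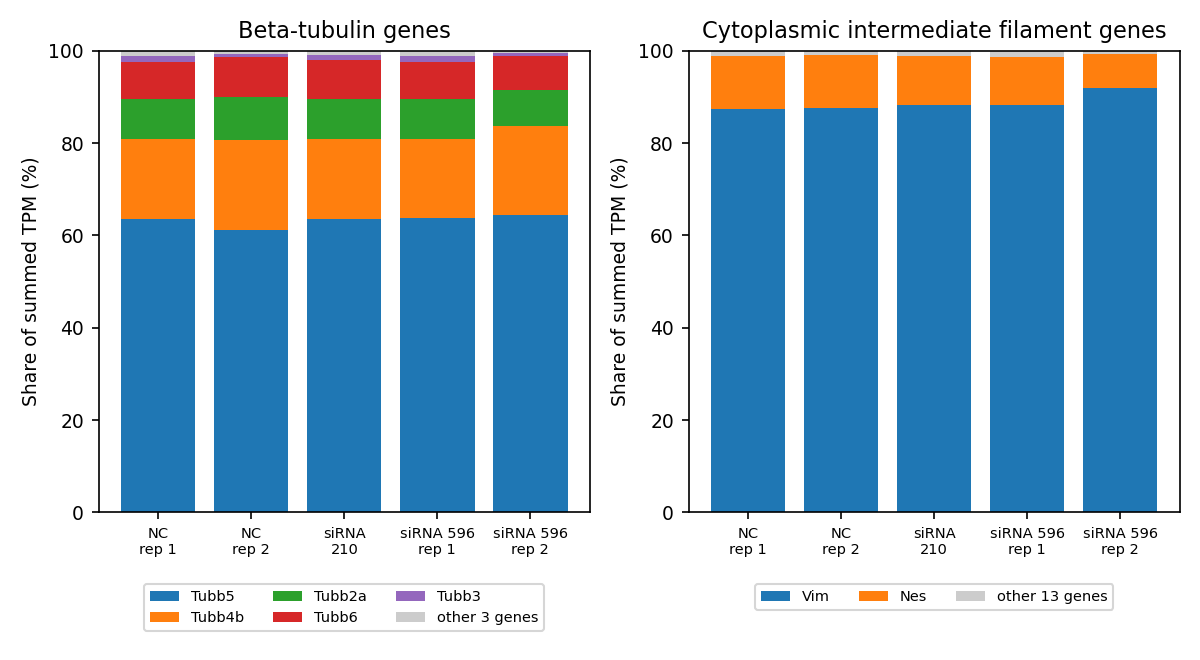
Share of the summed TPM (%) of 8 beta-tubulin genes (left) and 15 cytoplasmic intermediate filament genes (right) in each of the 5 libraries, as stacked bars of named genes with the other genes of the family in grey. *Tubb5* holds 61.1% to 64.4% of beta-tubulin and *Vim* 87.3% to 92.0% of intermediate filament mRNA, and *Tubb3* is a thin band of at most 1.36%.

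Other genes of the same protein classes were widely detected. More than 3 counts in each of the 4 libraries were found for 12 of 14 further tubulin genes, with *Tubb5* (2436 TPM) and *Tuba1b* (1429 TPM) the highest on the mean of the 4. The same held for 12 of 14 further genes of microtubule-binding proteins, led by *Map7d1* (271 TPM) and *Mapre1* (123 TPM). Of 11 genes of stathmins, collapsin response mediators and growth-cone proteins 6 passed, led by *Marcksl1* (284 TPM) and *Marcks* (267 TPM). Of 13 further intermediate filament genes 10 passed, led by the nuclear lamins *Lmna* (506 TPM) and *Lmnb1* (300 TPM). Of 9 genes of kinases that phosphorylate tau and other microtubule-associated proteins, and their activators, 7 passed, with *Gsk3a* at 67.6 TPM and *Cdk5* at 63.6 TPM. All 12 genes of REST and its corepressors passed, with *Ehmt2* at 204 TPM and *Hdac1* at 187 TPM.

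The label hippocampal neuronal was then set against marker genes of neurons and other cell types. Of 22 neuron markers 8 had more than 3 counts in each of the 4 libraries, and *Elavl4*, *Snap25*, *Slc17a6*, *Gria2* and *Prox1* were among those with 0 counts in all 5. *Rbfox3*, which encodes NeuN, had 0 counts in 4 libraries and 2 in the library labelled siRNA596 replicate 2. The highest neuron markers were *Uchl1* (99.9 TPM), a ubiquitin hydrolase gene, and *Eno2* (55.0 TPM), the gene of neuronal enolase. Several defining genes of mature neurons were thus at or near 0, in common with *Nefl*, *Nefm* and *Stmn2*. Other neuron markers passed, among them *Ncam1* (54.9 TPM), *Dlg4* (28.4 TPM), *Slc17a7* (2.17 TPM) and *Syn1* (1.62 TPM), named after their values were seen. The progenitor markers were also uneven. Beside *Nes* and *Vim*, 6 of 12 progenitor markers passed, led by *Hes1* (24.7 TPM), a Notch target, and *Pax6* (13.8 TPM), whereas *Sox2*, *Sox1*, *Hes5* and *Prom1* were among those with 0 counts in all 5 libraries. *Nes* and *Vim* were therefore high without *Sox2*, a defining transcription factor of neural stem cells.

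Markers of mesenchymal cells, which also use vimentin, had the highest summed level of the marker lists, but were uneven too. Of 12 such genes 9 had more than 3 counts in each of the 4 libraries. The collagen gene *Col1a1* had 2243 TPM on the mean of the 4, close to *Vim*, and *Fn1* (fibronectin) had 1438 and *Col1a2* 248. *Postn* had 1.33 TPM, and *Tagln* (0.286 TPM) and *Dcn* (0.233 TPM), named after their values were seen, did not pass. *Lum* had 0 counts in all 5 libraries. Of the astrocyte markers 5 of 7 passed, with *Gfap* at 0.388 TPM, *Aqp4* at 0 counts, *Slc1a3* at 14.6 TPM and *Gja1* at 71.4 TPM. Of 8 oligodendrocyte markers 3 passed, with *Cnp* at 24.2 TPM, *Mbp* at 0.393 and *Mog* at 0.267. Of 7 microglia markers 3 passed, with *Tmem119* at 36.9 TPM, *Aif1* at 1.28, *Cx3cr1* at 0.0795 and *Itgam* and *Ptprc* at 0 counts. Of 5 endothelial markers 1 passed, with *Kdr* at 0.311 TPM, *Pecam1* at 0.138 and *Cdh5* at 0.0537. A cell type is not assigned from these levels.

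**Figure D3:**
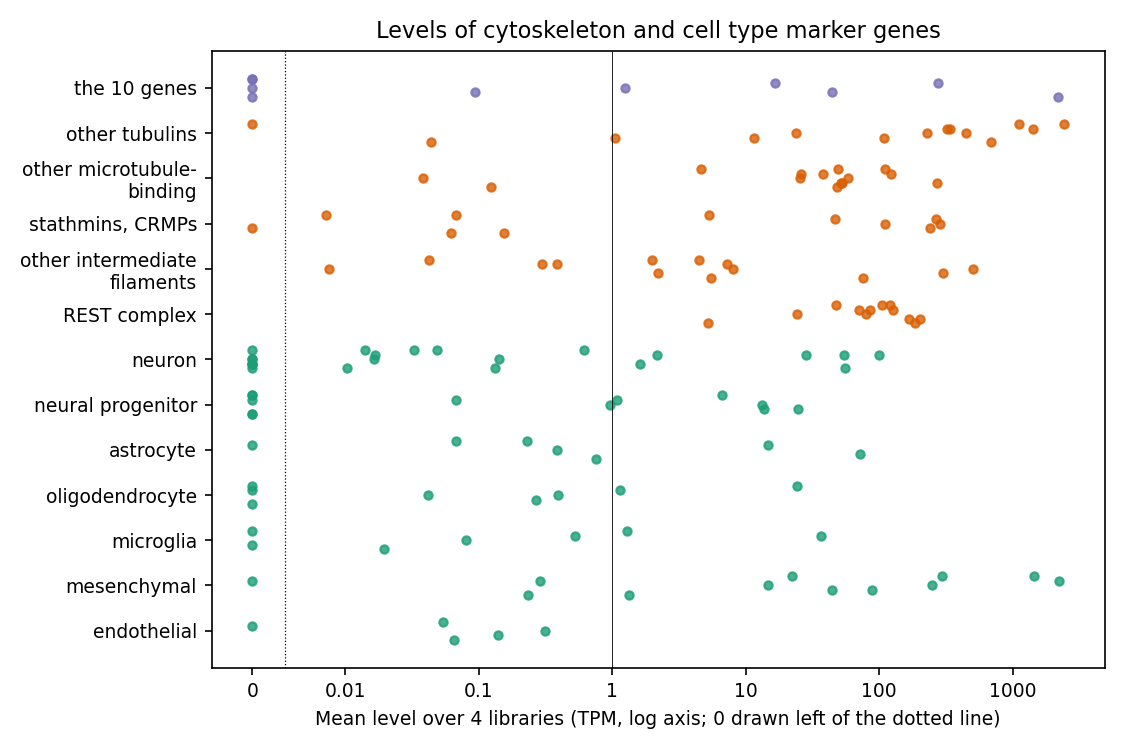
Mean level over 4 libraries (TPM, log axis) of the 10 cytoskeleton genes (purple), of further cytoskeleton and REST genes (orange) and of cell type marker genes (green), with 1 point per gene, 0 drawn left of the dotted line and the solid line at 1 TPM. *Vim* at 2202 TPM lies beside the mesenchymal marker *Col1a1* at 2243, while several neuron and progenitor markers, *Snap25* and *Sox2* among them, lie at 0.

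Whether GAS5 knockdown changed these genes was asked by comparing KD with NC. None of the 10 was called. Of the 10, 5 passed the filter on low counts (*Tubb3*, *Map2*, *Mapt*, *Nes* and *Vim*) and 5 did not, *Nefh* and the 4 with 0 counts. The quasi-likelihood test of edgeR called 0 of the 5 at an adjusted *P* of 0.05, and 0 of them had an unadjusted *P* under 0.05. Over all 15867 genes tested 0.0% were called by adjusted *P* and 3.3% passed the unadjusted threshold. DESeq2 called 1 gene by adjusted *P* (0.0063%), not among the 10, while 2.32% passed its unadjusted threshold, again with 0 of the 10. In the edgeR fit of 5 libraries 0.0% of 16142 genes were called by adjusted *P* and 0.372% passed the unadjusted threshold (0.539% in DESeq2), 0 of the 10 among them. The study's criteria, an unadjusted *P* under 0.05 with a change over 2-fold, were met by 0 of the 10, beside 0.876% of all genes tested with 4 libraries and 0.353% with 5. The median log2 fold change of the 5 tested genes was 0.04, and that of all genes was −0.0023. Without NC replicate 1 the median of the 5 was 0.26, and without NC replicate 2 it was 0.04.

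With 4 libraries the tightest estimate was that of *Vim*. Its TMM-scaled level was 2849 and 2547 CPM in the NC libraries, 3166 with siRNA210 and 2945 in siRNA596 replicate 1, and 4358 in the library labelled siRNA596 replicate 2. Each KD library lay above both NC libraries on this scale, which 16.7% of all genes tested showed with 4 libraries and 8.32% with 5. *Vim* was the 1 gene of the 5 tested whose groups did not overlap, as for 32.9% of all genes with 4 libraries and 17.8% with 5. None of the 5 lay below NC in every KD library, as 16.2% and 9.48% of all genes did. The log2 fold change was 0.18 ± 0.085 (SE), with a 95% interval of −0.01 to 0.37 and an adjusted *P* of 0.967 in edgeR. With all 5 libraries it was 0.37 ± 0.29. In TPM the library labelled siRNA596 replicate 2 lay between the NC libraries, so its place above them held in CPM and not in TPM.

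*Nes* had 509 and 446 CPM in the NC libraries, 508 with siRNA210, 473 in siRNA596 replicate 1 and 471 in the library labelled siRNA596 replicate 2. The groups overlapped. The log2 fold change was 0.04 ± 0.09, with an interval of −0.17 to 0.24 and an adjusted *P* of 0.98 in edgeR. Among the tested genes of the 10 only *Vim* had a narrower interval with 4 libraries, and none had with all 5 (*Nes* 0.02 ± 0.21).

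*Tubb3* had 25.3 and 14.9 CPM in the NC libraries, 24.9 with siRNA210, 27.1 in siRNA596 replicate 1 and 18.8 in the library labelled siRNA596 replicate 2. NC replicate 1 lay between the KD libraries of the 4 and NC replicate 2 below them. The log2 fold change was 0.37 ± 0.21 (interval −0.10 to 0.85, adjusted *P* of 0.967 in edgeR), and 0.23 ± 0.32 with all 5 libraries.

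*Map2* had 69.0 and 86.9 CPM in the NC libraries, 68.8 with siRNA210, 73.5 in siRNA596 replicate 1 and 31.5 in the library labelled siRNA596 replicate 2. Its log2 fold change was −0.13 ± 0.12 (interval −0.40 to 0.13, adjusted *P* of 0.967 in edgeR), and −0.43 ± 0.40 with all 5. *Mapt* had 3.21 and 1.93 CPM in the NC libraries, 2.43 and 2.77 in the KD libraries of the 4 and 0.379 in the library labelled siRNA596 replicate 2. Its log2 fold change was 0.02 ± 0.33 (interval −0.72 to 0.76, adjusted *P* of 0.999 in edgeR) and turned to −0.46 ± 0.80 with all 5.

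**Figure D4:**
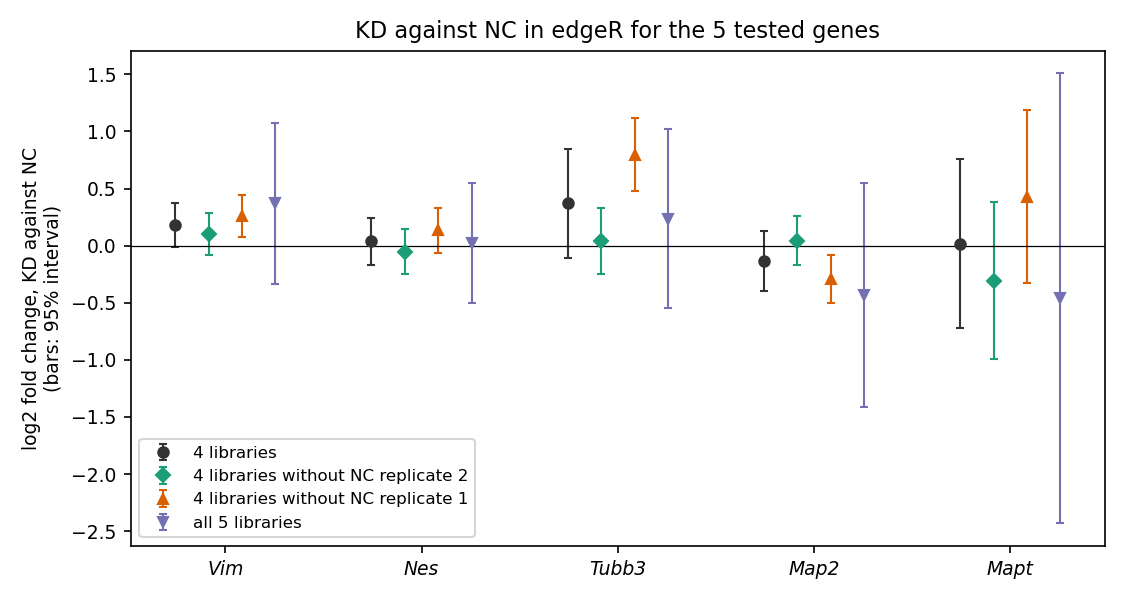
Log2 fold change of KD against NC in edgeR for the 5 tested genes, with 95% intervals, from 4 libraries, from the 4 without either NC library in turn, and from all 5. With the 4 libraries every interval includes 0. *Vim*, *Tubb3* and *Map2* lie at 0.26, 0.80 and −0.29 without NC replicate 1, and at 0.10, 0.04 and 0.04 without NC replicate 2. Fits without an NC library hold a single NC library, so their intervals carry no spread between NC libraries.

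The size of these estimates depended on which NC library entered. For all 5 tested genes NC replicate 2 lay outside the range of the other 3 of the 4 libraries, as it did for 66.9% of all genes tested. The same share was 43.7% for NC replicate 1, 51.7% for the siRNA210 library and 37.7% for siRNA596 replicate 1. *Tubb3* in NC replicate 2 differed from the mean of the other 3 by −0.78 on the log2 scale, more than 92.6% of genes did. The difference was −0.52 for *Mapt*, 0.30 for *Map2*, −0.23 for *Vim* and −0.16 for *Nes*. Without NC replicate 2 the log2 fold change of *Tubb3* was 0.04 and that of *Map2* turned to 0.04. *Mapt* was −0.31 without NC replicate 2 and 0.43 without NC replicate 1. Without NC replicate 1 the log2 fold change was 0.80 for *Tubb3*, −0.29 for *Map2* and 0.26 for *Vim*. Either of these fits holds a single NC library, so its errors carry no spread between NC libraries. No adjusted *P* of these genes fell under 0.05 in either case.

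Each siRNA was also set against the mean of the NC libraries, without a test since siRNA210 has 1 library. For *Tubb3* the log2 ratio was 0.31 with siRNA210 and 0.43 in siRNA596 replicate 1. For *Vim* it was 0.23 and 0.13, for *Map2* −0.18 and −0.09, for *Nes* 0.09 and −0.01 and for *Mapt* −0.08 and 0.11. The NC libraries themselves differed by −0.76 for *Tubb3*, −0.16 for *Vim*, 0.33 for *Map2*, −0.19 for *Nes* and −0.74 for *Mapt* (log2 of replicate 2 over replicate 1). A ratio to the NC mean and the full NC difference are unlike measures, so the place of each library in CPM is given instead. *Vim* lay above both NC libraries with siRNA210 and in siRNA596 replicate 1. *Tubb3* lay above both in siRNA596 replicate 1 and between them with siRNA210. *Map2* lay below both with siRNA210, by −0.00381 from NC replicate 1, and between them in siRNA596 replicate 1. *Nes* and *Mapt* lay between the NC libraries with either siRNA. In the library labelled siRNA596 replicate 2 the ratios were −1.31 for *Map2* and −2.76 for *Mapt*, below both NC libraries. There the ratio was 0.69 for *Vim*, above both, and −0.09 for *Tubb3* and −0.02 for *Nes*, between them.

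The library labelled siRNA596 replicate 2 differed from the other 4 by gene length. Across 10 bins of exonic length with like numbers of genes its median log2 difference from their mean ran from 0.63 in the shortest genes (median 555 bases) to −0.97 in the longest (median 11585 bases). *Map2* at 16449 bases was 42.3% of the mean of the other 4 libraries, a log2 difference of −1.24 beside −0.97 for the median of its bin. *Mapt* at 7531 bases was 14.7% of that mean (−2.49 beside −0.63), which lay below the middle 50% of its bin. *Vim* at 4743 bases was 151% of the mean (0.60 beside −0.18), above the middle 50% of its bin. *Nes* (−0.04 beside −0.37) and *Tubb3* (−0.29 beside 0.51) lay within it. The part of length in these differences was not tested. With an offset for length in each library, the log2 fold change from all 5 libraries was 0.42 for *Vim*, 0.16 for *Nes*, 0.09 for *Tubb3*, −0.11 for *Map2* and −0.40 for *Mapt*.

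**Figure D5:**
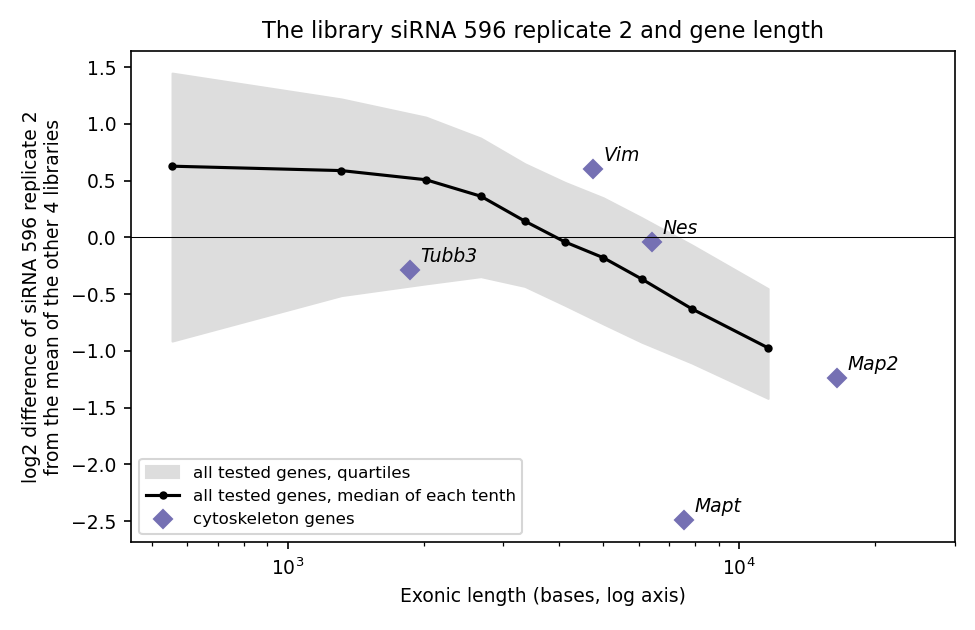
Log2 difference of the library labelled siRNA596 replicate 2 from the mean of the other 4 libraries against exonic length (bases, log axis). Black points are medians of 10 length bins of all tested genes, the grey band is the middle 50% of each bin and diamonds are the 5 tested cytoskeleton genes, of which *Mapt* at −2.49 lies below the band of its bin and *Vim* at 0.60 above.

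The other cytoskeleton genes gave no adjusted calls either. Among the further tubulins 1 of 12 tested had an unadjusted *P* under 0.05 and was higher in KD, against 1.75% of all genes tested. That gene is *Tuba4a*, an alpha-tubulin gene, named after its values were seen, with a log2 fold change of 0.22 ± 0.086. The median log2 fold change of the 12 tubulins was 0.10 (0.12 without NC replicate 2, 0.07 without NC replicate 1). Both KD libraries of the 4 lay above both NC libraries for 7 of them, against 16.7% of all genes tested. The same held for 5 of 12 microtubule-binding genes and 5 of 8 neuron markers tested. It held for 1 gene in each of the stathmin, intermediate filament, tau kinase and REST lists. Both lay below NC for 0 tubulins, 1 microtubule-binding gene and 0 neuron markers, against 16.2% of all genes. Among 12 tested genes of microtubule-binding proteins 1 passed the unadjusted threshold, *Map1s* (0.19 ± 0.084), also named after its values were seen. Without NC replicate 2 neither passed, at 0.17 and 0.13, nor did either with all 5 libraries. The medians were 0.03 for these 12, 0.01 for 6 tested genes of stathmins and related proteins, 0.17 for 10 intermediate filament genes, −0.06 for 7 tau kinase genes and 0.01 for the 12 genes of REST and its corepressors. Without NC replicate 2 the median fell to 0.04 for the intermediate filament genes, turned to −0.02 for the stathmins and related genes and to 0.01 for the tau kinase genes, and was 0.04 for the REST genes. None of the genes of these last 4 lists passed the unadjusted threshold in edgeR. *Rest* itself, named after its values were seen, had 46.8, 48.3, 46.6, 46.8 and 11.9 TPM in the order NC replicate 1, NC replicate 2, siRNA210, siRNA596 replicate 1 and the library labelled siRNA596 replicate 2.

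Of the 8 neuron markers tested 1 passed the unadjusted threshold. *Elavl3*, the gene of a neuronal RNA-binding protein, had 2 counts in NC replicate 1, 6 in NC replicate 2, 13 with siRNA210, 18 in siRNA596 replicate 1 and 20 in the library labelled siRNA596 replicate 2. Its log2 fold change was 1.97 ± 0.785 with an unadjusted *P* of 0.033 and an adjusted *P* of 0.967 in edgeR, at a level of 0.142 TPM. It reached the filter on low counts through the KD libraries, where it is high, so this *P* carries that selection. The log2 fold change of *Elavl3* was 1.45 without NC replicate 1 and 2.86 without NC replicate 2. With all 5 libraries it was 2.29, with an unadjusted *P* of 0.0296 and an adjusted *P* of 0.963 in edgeR, under the same selection. The neuron markers tested had a median log2 fold change of 0.20, which was 0.06 without NC replicate 2 and 0.39 without NC replicate 1. Their summed level was 254.2 TPM in NC replicate 1, 197.9 in NC replicate 2, 259.1 to 260.9 in the KD libraries of the 4 and 235 in the library labelled siRNA596 replicate 2. None of the 6 progenitor markers tested passed in edgeR, and their summed level was 56.95 to 68.14 TPM in NC, 56.54 to 60.26 TPM in the KD libraries of the 4 and 107.7 TPM in the library labelled siRNA596 replicate 2, where *Hes1* alone had 94.4 TPM. Of the mesenchymal markers *Postn*, which encodes periostin, had 84 and 255 counts in NC, 70 and 59 in KD and 83 in the library labelled siRNA596 replicate 2 (log2 fold change −1.33, unadjusted *P* of 0.0145, adjusted *P* of 0.967 in edgeR). Without NC replicate 2 its log2 fold change was −0.40 (unadjusted *P* of 0.236), and with all 5 libraries the unadjusted *P* was 0.116. The summed mesenchymal level was 4138 to 4542 TPM in NC and 4385 to 4531 TPM in the KD libraries of the 4, with 2315 TPM in the library labelled siRNA596 replicate 2. The astrocyte marker *Slc1a3* was the other that passed the unadjusted threshold (−0.54, unadjusted *P* of 0.029), from 1089 counts in NC replicate 1, 1922 in NC replicate 2, 874 with siRNA210 and 1120 in siRNA596 replicate 1. NC replicate 1 lay between the KD libraries, and without NC replicate 2 the log2 fold change was −0.15 (unadjusted *P* of 0.444), while all 5 libraries gave an unadjusted *P* of 0.2. The summed levels in NC and in the KD libraries of the 4 were 72.91 to 96.44 and 85.63 to 94.93 TPM for astrocyte, 24.32 to 27.36 and 25.31 to 27.4 for oligodendrocyte, 36.96 to 37.57 and 39.66 to 41.19 for microglia and 0.5799 to 0.6763 and 0.3087 to 0.7022 for endothelial markers. In the library labelled siRNA596 replicate 2 they were 27.76, 20.27, 41.57 and 0.2205 TPM in that order. The part of other cell types in the levels of *Vim* and *Nes* was not tested.

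Over the 5 libraries the genes whose log2 CPM, centred on its own mean, came closest to that of *Vim* were *Cactin*, *Nxn* and *Smpdl3b*, with root mean square differences of 0.0248, 0.0275 and 0.03. For *Nes* they were *Clcn2*, *Maea* and *Snapin*, with 0.0219, 0.0221 and 0.0226. The search ran over 16141 genes and 5 libraries, so that close patterns among so many genes are a description of these libraries.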

How the data were processed

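Poly(A) RNA of 5 HT22 libraries was sequenced. The counts deposited by the authors are whole reads per gene, made by trimming with Trimmomatic, alignment with HISAT2 2.1.0 to GRCm38, sorting with SAMtools 1.7 and counting with featureCounts 2.0.1 on Ensembl release 101, without normalization. The strand setting and the treatment of multi-mapped reads are not given in the sources used here. A further deposited table holds the authors' DESeq2 1.26.0 comparison of KD with NC (log2 fold changes and *P*-values) and was not used.

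Gene names, exonic lengths and coordinates came from GENCODE annotation of GRCm38, which named 99.5% of identifiers, and all 10 genes were found. That annotation is another release than the one used for counting. TPM was computed from counts and the union of annotated exons. Of the 55487 genes 27363 had a count. KD was compared with NC by edgeR 4.0.16 in R 4.3.3 (TMM, filterByExpr, quasi-likelihood test, Benjamini-Hochberg adjustment, threshold 0.05), with 4 libraries first because the library labelled siRNA596 replicate 2 stands apart, and then with 5. Genes past the study's criteria (unadjusted *P* under 0.05, log2 fold change over 1 in size) were counted too. Errors are SE with 95% intervals from the quasi-likelihood degrees of freedom. Counts of 3 were taken as the floor. The siRNAs shared replicate numbers with NC, and whether such libraries were paired is not given in the sources used here. Named genes were the 10, Gas5, the 2 of highest mean TPM in each list, the first 2 of each marker list, list genes past the study's criteria, and the 3 most like *Vim* and *Nes*, with exceptions named in the text, and some genes of the lists are not reported here by name. The 10 genes, the lists and the choice of libraries were made with earlier results of these data known. On simulated data with 200 genes changed 2-fold at a dispersion of 0.01, 98.5% were recovered with 4 libraries (15536 genes, 4 false calls) and 100% with 5 (15733 genes, 5 false calls). This checks the code only. Every gene had that dispersion, changed genes were above a minimum mean count, and every library was drawn from the mean profile of the 4. The departure of the library labelled siRNA596 replicate 2 was absent, so these shares do not give the power of the fits to the data. Alternatives included DESeq2 1.42.0, other scalings and filters, left-out libraries, a length offset and a replicate block. DESeq2 with all 5 libraries was added after seeing the data. Figures used matplotlib 3.10.9.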

Additional observations from a re-analysis of the deposited data

How the results depend on the processing

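With 2 or 3 libraries a group, precision is limited by their number and, for *Mapt* and *Nefh*, by counts. Over 19 settings the log2 fold change ran from 0.101 to 0.478 for *Vim*, −0.0758 to 0.162 for *Nes*, −0.1 to 0.798 for *Tubb3*, −0.681 to 0.0449 for *Map2* and −1.2 to 0.427 for *Mapt*, and the lowest adjusted *P* was 0.207 (*Tubb3*, without NC replicate 1). Of the fold changes 71 kept their direction and 19 turned, none of them past a threshold. *Mapt* turned to −0.458 with all 5 libraries, −0.466 with DESeq2 on all 5, −0.397 with the length offset and −0.695 for siRNA596 against NC, and leaving out a library it ran from −0.858 to −0.0469 where it turned (−0.305 without NC replicate 2, −0.0809 without siRNA596 replicate 1, −0.782 for all 5 without NC replicate 2). *Nes* turned to −0.0128 for siRNA596 against NC and between −0.0758 and −0.0128 on leaving out a library (−0.0521 without NC replicate 2, −0.0166 without siRNA210), with 0.135 without NC replicate 1. *Tubb3* turned to −0.1 for all 5 without NC replicate 2, and *Map2* to 0.0449 without NC replicate 2, with −0.292 without NC replicate 1. The cause was not tested.

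Genes past an unadjusted *P* of 0.05 and 2-fold numbered 139 with 4 libraries. The number was 57 with all 5, 67 with DESeq2, 81 with DESeq2 on all 5, 282 with no filter, 73 at a minimum of 10 counts, 51 with the length offset and 41 for siRNA596 against NC. Leaving out a library gave 125 to 374 from the 4 (374 without NC replicate 1) and 33 to 58 from all 5, and a group left with 1 library was assumed to vary like the other. Adjusted calls numbered 0, against 1 with DESeq2 and 1 without siRNA210. Of the 10 genes 0 had an unadjusted *P* under 0.05, against 1 with no filter (*Vim*). Fits left with a single NC library are not counted here. With the replicate number as a block in siRNA596 against NC, 426 genes passed, *Mapt* was −1.2 and *Nes* −0.00974. Samples with the same number deviated with a correlation of 0.0967 over 2 pairs. That value includes the library labelled siRNA596 replicate 2, which stood apart, so it cannot tell whether these samples were paired.

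Per longest coding transcript the mean levels were 31.6 TPM for *Tubb3*, 30.7 for *Map2*, 203 for *Nes* and 3369 for *Vim*. Over all 5 libraries they were 14.1 for *Map2* and 252 for *Nes*. With library size only, the log2 ratio of the library labelled siRNA596 replicate 2 to NC was −1.59 for *Map2*, −0.298 for *Nes* and 0.413 for *Vim*.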
